A study of Mus musculus with 3 samples.

Results

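The CXC chemokine genes Cxcl1, Cxcl2, Cxcl3, Pf4, Ppbp and Cxcl16 were described in single macrophages of the mouse sciatic nerve, before and after a nerve crush. These 6 genes, chosen by name, were all found among the 27998 genes of the count tables. The cells came from C57BL/6 mice and were profiled with 10x Genomics version 1 droplets as 3 libraries, each a separate sample. One library was from uninjured nerve (steady state), with 728 cells kept, one from nerve 1 day after crush, with 2793 cells, and one from nerve 5 days after crush, with 2059 cells. The labels do not state age, sex, how many animals were pooled or how the cells were sorted. Each time point is a single library, so no test was made and every difference is one between libraries.

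CXC chemokines are small secreted proteins that steer leukocytes through G protein-coupled receptors and that bind the sugar chains of proteoglycans on cell surfaces. Cxcl1, Cxcl2 and Cxcl3 attract neutrophils through the receptor Cxcr2, and Ppbp, stored in platelets as a precursor of the neutrophil attractant NAP-2, belongs to the same receptor group. Pf4 is platelet factor 4, a heparin-binding chemokine of platelet granules that tissue macrophages also transcribe. Cxcl16 is a membrane-anchored chemokine and scavenger receptor that is released by the proteases ADAM10 and ADAM17 and binds Cxcr6.

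All of these genes but Cxcl16 lie together on chromosome 5 in the annotation used (GENCODE M21, GRCm38, the mm10 build of the files), on the plus strand. The order was Ppbp (chr5:90768518-90770063), Pf4 (chr5:90772435-90773383), Cxcl3 (chr5:90786103-90789600), Cxcl1 (chr5:90891241-90893115) and Cxcl2 (chr5:90903871-90905938), a span of 137 kb. Ppbp and Pf4 are separated by 2371 bases. Cxcl16 lies at chr11:70453983-70459984 on the minus strand, where it overlaps Zmynd15 on the plus strand. The 100 bases before the RefSeq start of each chromosome 5 gene (GRCm38.p6, plus strand, 5′ to 3′) are shown because the genes of the cluster differed in them. Capitals mark matches to the NF-kB consensus, counted on both strands, where 1 match on each strand overlap.
Cxcl1: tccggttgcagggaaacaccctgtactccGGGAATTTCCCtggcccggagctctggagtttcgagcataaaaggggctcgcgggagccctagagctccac
Cxcl2: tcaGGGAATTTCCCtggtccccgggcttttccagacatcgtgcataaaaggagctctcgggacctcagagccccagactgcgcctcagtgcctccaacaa
Cxcl3: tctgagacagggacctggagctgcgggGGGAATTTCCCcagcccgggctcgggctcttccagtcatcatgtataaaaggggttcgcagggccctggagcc
Ppbp: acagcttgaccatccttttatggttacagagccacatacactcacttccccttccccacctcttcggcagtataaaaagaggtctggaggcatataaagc
Pf4: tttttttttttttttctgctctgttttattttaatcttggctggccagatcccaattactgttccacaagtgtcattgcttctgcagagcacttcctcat
These windows lie at chr5:90891145-90891244, chr5:90903799-90903898, chr5:90786001-90786100, chr5:90768418-90768517 and chr5:90772335-90772434, in the order printed. The letters GGGAATTTCC stood at positions -71 to -62 in Cxcl1, -97 to -88 in Cxcl2 and -73 to -64 in Cxcl3, counted from the RefSeq start. The RefSeq and GENCODE starts differ, most of all for Cxcl2, whose window ends at 90903898, past its GENCODE start at 90903871. Its more distant position and the identities of its window therefore depend on the start used. In the table's 300-base windows, which run from 250 bases before the start to 50 after it, neither Ppbp nor Pf4 held these letters or an NF-kB consensus match. GGGAATTTCC was in 29 of 32851 such windows (0.0883%) and the consensus in 1480 (4.51%). These letters were read from the consensus match of the Cxcl3 window and then searched for, so their presence in Cxcl3 was fixed beforehand. The windows with them include those of Cxcl1, Cxcl2 and Cxcl3, so the 0.0883% is not read as a measure of how rare the shared letters are. ATAAAA was found in all 5 windows and in 18.5% of all windows, with a plus-strand match at -29 to -24 in both Ppbp and Cxcl3. The letters AGATAA, bound by a transcription factor family of megakaryocytes, were found in Pf4 alone of the 5 (36 to 41 bases after the start) and in 11.2% of all windows. Cxcl1 and Cxcl3 had 64.3% identical bases over these windows of 100 bases when aligned, Cxcl1 and Cxcl2 54.1%, Cxcl3 and Cxcl2 50.5%, and the pairs with Ppbp or Pf4 42.9 to 49.6%. A match is a description of the letters and not of a bound site.

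The cells had a median of 2238.5, 2555 and 2473 UMIs (unique molecular identifiers, short tags by which copies of one captured RNA are counted a single time) at steady state, day 1 and day 5, and their deepest 242, 931 and 686 cells began at 2543, 3433 and 3294 UMIs. The libraries shared 2 to 11 cell barcodes pairwise and 0 across all 3. Of 9 macrophage markers, among them Csf1r and Adgre1, 0 were absent from any library, and their summed level was 25699, 7218 and 17328 CPM (UMIs of a gene scaled to a library total of 1000000). Because Pf4 and Ppbp are platelet genes, 10 platelet markers were counted. They summed to 0, 1 and 4 UMIs in the 3 libraries, and Gp9 and Itga2b were at 0 throughout. Red blood cell genes summed to 0, 92 and 2 UMIs. Of 10 neutrophil markers 7, 4 and 4 were at 0, and they summed to 12.7, 69.9 and 30.05 CPM. Ly6g, Camp and Ngp were at 0 in all libraries, but S100a8 and S100a9 were found at day 1, where 322 cells had a UMI of any of these markers. Monocyte markers, Vcan among them, summed to 270, 2664 and 1087 CPM and epineurial macrophage markers to 12522, 304 and 2252 CPM, so that the makeup of the cells differed between the libraries along with the chemokines. The part of this in the chemokine levels was not tested.

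Across the libraries the genes took 4 courses. Cxcl3 and Ppbp were high at day 1 and near the detection limit at day 5. Pf4 was highest at day 1 and lowest at day 5. Cxcl1 and Cxcl2 were highest in uninjured nerve and lowest at day 5, and Cxcl16 was highest at day 5. Levels are compared here between libraries for 1 gene at a time. A gene is called different where 2 libraries are at least 2-fold apart and either reaches 10 CPM, and the intervals at 95% in brackets cover counting error only.

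**Figure D1:**
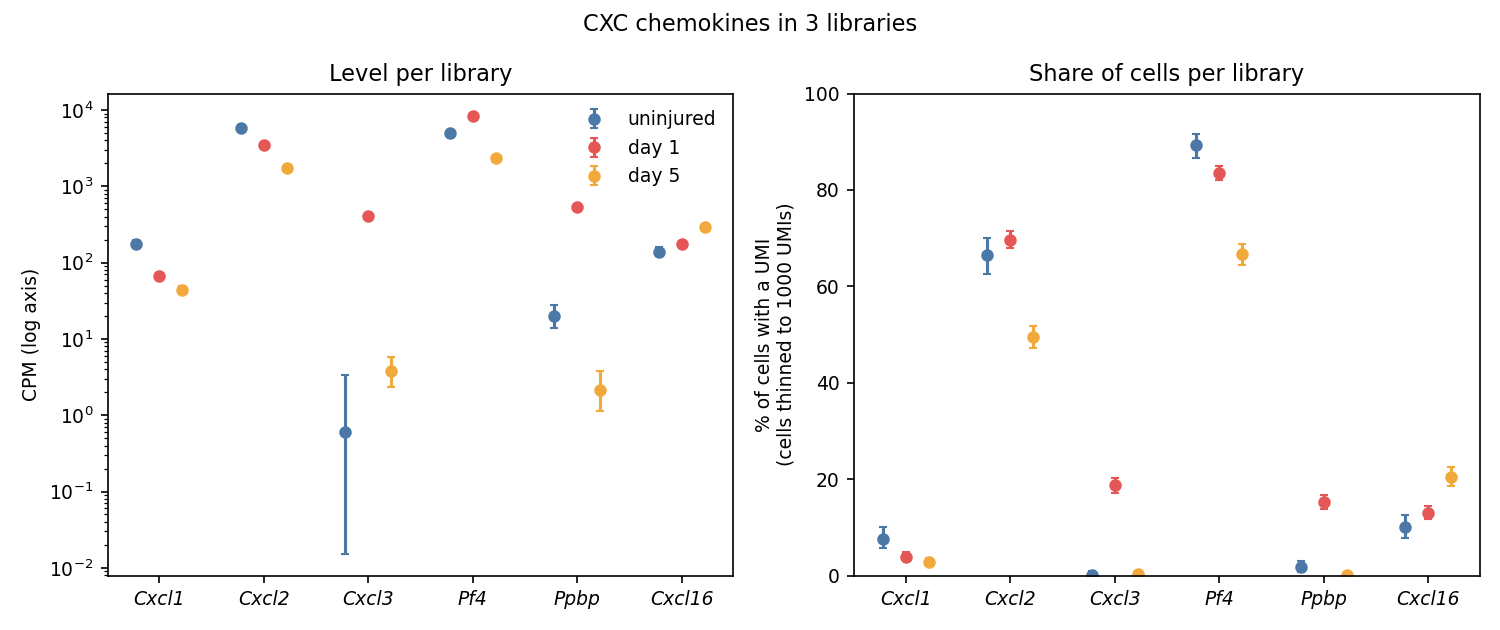
The left panel plots the CPM of each gene in each library on a log axis with exact Poisson 95% intervals, and the right panel the percentage of cells with at least 1 UMI after every cell was thinned to 1000 UMIs, with exact binomial 95% intervals. Cxcl3 and Ppbp stand at 407 and 544 CPM at day 1 and at 3.80 and 2.17 CPM at day 5, while Cxcl16 is the gene with its highest point at day 5.

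Cxcl1 was at 177 CPM (158 to 199) in uninjured nerve, 66.8 CPM (61.3 to 72.7) at day 1 and 44.2 CPM (38.8 to 50.1) at day 5. It was 2.66-fold lower at day 1 (2.30 to 3.07) and 4.02-fold lower at day 5 (3.38 to 4.78) than in uninjured nerve. Few cells carried it. It had a UMI in 10.9%, 6.44% and 4.52% of cells, and in 7.68%, 3.97% and 2.87% of cells thinned to 1000 UMIs, where 90, 297 and 282 shallower cells were left out. In uninjured nerve 10 cells held 49.7% of its UMIs, and 9 of these 10 belonged to one group of cells, described below as cluster 4. Without the 10 cells with the most Cxcl1 in each library, the levels were 91.0, 50.03 and 27.2 CPM. The day 1 level was then no longer at least 2-fold lower (log2 ratio -0.86 against -1.41). These were 10 of 79 cells with Cxcl1 in uninjured nerve and 10 of 180 at day 1, with 49.7% and 25.6% of its UMIs. Leaving them out thus lowered uninjured nerve more, and the smaller ratio comes partly from that.

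Cxcl2, whose product shares the receptor of Cxcl1, was at 5842 CPM (5726 to 5959), 3483 CPM (3443 to 3525) and 1744 CPM (1709 to 1779). It was 1.68-fold lower at day 1 (1.64 to 1.72), which is not called, and 3.35-fold lower at day 5 (3.26 to 3.45) than in uninjured nerve. Between day 1 and day 5 it differed 1.998-fold (1.95 to 2.04), just inside the limit. The level and the share of cells did not follow the same order. Cxcl2 had a UMI in 66.5% of thinned cells in uninjured nerve, 69.7% at day 1 and 49.5% at day 5, so that the higher sum in uninjured nerve than at day 1 went with more UMIs per positive cell (a mean of 17.8 against 11.98) and not with more positive cells. In uninjured nerve the cell with the most Cxcl2 carried 150 UMIs of it among 2768, which is 5.42% of that cell's UMIs.

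Cxcl3 had 1 UMI in uninjured nerve (0.604 CPM), 3243 UMIs at day 1 (407 CPM, 393 to 422) and 21 UMIs at day 5 (3.80 CPM, 2.35 to 5.81). The ratio of day 1 to uninjured nerve was 675, but with 1 UMI in the latter its interval ran from 121 to 26654. Day 5 was 107-fold lower than day 1 (70.0 to 173). At day 1 it was found in 28.0% of cells (18.7% of thinned cells), against 1 of 728 cells in uninjured nerve and 12 of 2059 at day 5. The 10% of day 1 cells with the most Cxcl3 held 79.2% of its UMIs. Cxcl3 and Cxcl2 share 108 sequence stretches of 50 bases, 3.01% of those of Cxcl3 and 5.00% of those of Cxcl2, and the labels do not say how reads from these were counted. Uninjured nerve had 9677 UMIs of Cxcl2 beside the 1 of Cxcl3.

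Ppbp had 33 UMIs in uninjured nerve (19.9 CPM, 13.7 to 28.0), 4330 at day 1 (544 CPM, 528 to 560) and 12 at day 5 (2.17 CPM, 1.12 to 3.79). It was 27.3-fold higher at day 1 than in uninjured nerve (19.4 to 39.7), and day 5 was 250-fold lower than day 1 (143 to 485) and 9.17-fold lower than uninjured nerve (4.62 to 19.5). Its cells were few and some carried much of it. It had a UMI in 22.6% of day 1 cells (15.3% of thinned cells), and the 10% of cells with the most held 89.0% of its UMIs. The highest cell had 204 Ppbp UMIs among 4778, or 4.27% of its UMIs, and 118 cells had 10 or more. Without the 10 highest cells the day 1 level was 435 CPM.

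Pf4 was at 5066 CPM (4958 to 5176), 8434 CPM (8370 to 8498) and 2375 CPM (2334 to 2416). It was 1.66-fold higher at day 1 than in uninjured nerve (1.63 to 1.70), not called, and at day 5 it was 2.13-fold lower than in uninjured nerve (2.08 to 2.19) and 3.55-fold lower than at day 1 (3.49 to 3.62). Unlike Ppbp it was found in most cells, at 95.2%, 93.4% and 82.8%, or 89.3%, 83.6% and 66.7% of thinned cells. Within each library its share of UMIs went down with depth. At day 1 the shallowest, middle and deepest cells, 931 in each group, had 13756, 10022 and 6250 CPM. The same groups had 3955, 3045 and 1613 CPM at day 5 and, with a smaller fall, 5508, 5116 and 4865 CPM in uninjured nerve. The level at day 5 against uninjured nerve passed below 2-fold when each cell had equal weight (log2 ratio -0.85) or was thinned to 1000 UMIs (-0.86), against -1.09 from summed UMIs.

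Cxcl16 was at 139 CPM (121 to 158), 175 CPM (166 to 185) and 292 CPM (278 to 307), higher at each later time. It was 1.26-fold higher at day 1 (1.10 to 1.46) and 2.10-fold higher at day 5 (1.83 to 2.43) than in uninjured nerve, and 1.67-fold higher at day 5 than at day 1 (1.55 to 1.79). It had a UMI in 17.4%, 24.6% and 36.5% of cells, and in 10.0%, 13.0% and 20.5% of cells thinned to 1000 UMIs (7.39%, 7.52% and 12.04% at 500 UMIs). Its UMIs were spread over many cells, and the 10 highest day 5 cells held 5.95% of them.

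Counted by the 2-fold rule, Cxcl3 and Ppbp were higher at day 1 than in uninjured nerve (2 of 6, where 16.4% of 7036 genes were higher) and Cxcl1 was lower (1 of 6, where 14.8% were lower). At day 5 against uninjured nerve, 5 of the 6 reached 10 CPM, and Cxcl1, Cxcl2, Pf4 and Ppbp were lower (4 of 5, background 11.1%) and Cxcl16 higher (1 of 5, background 9.85%). From day 1 to day 5, Cxcl3, Pf4 and Ppbp were lower (3 of 6, background 5.48%) and 0 were higher (background 4.91%). At 4-fold, Cxcl3 and Ppbp were higher at day 1 (2 of 6, background 4.85%) and 0 were lower (background 5.36%). At day 5 against uninjured nerve, Cxcl1 and Ppbp were at least 4-fold lower (2 of 5, background 2.85%) and 0 higher (background 2.68%). From day 1 to day 5, Cxcl3 and Ppbp were at least 4-fold lower (2 of 6, background 0.962%) and 0 higher (background 0.947%). These comparisons share libraries and so are not independent of each other. The genes were written down with earlier results of these data known.

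The cells of the 3 libraries were clustered with these 6 genes and their pathway lists left out, so that their levels in the clusters did not shape the clusters directly. Of 12 clusters, cluster 1 was epineurial macrophage-like by its markers (Cd209f, Fcna, Retnla), cluster 7 monocyte-like (Chil3, Vcan, Hp), cluster 8 dendritic cell-like (Ccr7, Ccl17, Ccl22) and cluster 5 cycling cell-like. The others stayed unnamed and are called by number and leading genes. Most clusters held cells mainly of 1 library, so a cluster may be a library as much as a cell type. Clusters 2 and 9 consisted of shallow cells, with medians of 1246 and 1350 UMIs.

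At day 1 the genes peaked in different clusters. Cxcl1 was at 475 CPM (410 to 548) in cluster 11, which was led by Stard6, Ch25h and Ccl12, against 66.8 CPM in the library, and this cluster of 129 cells (4.62% of the library) held 35.5% of all Cxcl1 UMIs. Cxcl2 was highest there too, at 9826 CPM (9520 to 10139), whereas Cxcl3 was at 62.8 CPM and Ppbp at 42.7 CPM. Cxcl3 peaked in cluster 12, led besides Cxcl3 itself by Slpi, Slc7a11 and Ctsk, at 1089 CPM (1037 to 1142) against 334 CPM in cluster 9 and 277 CPM in the monocyte-like cluster 7. Its 489 cells, 17.5% of the library, held 52.3% of Cxcl3 UMIs. Ppbp was at 881 CPM (835 to 929) in cluster 12, 739 CPM in cluster 9 and 519 CPM in cluster 7. Pf4 was at 16287 CPM (16067 to 16510) in cluster 9, the shallow cells, 2.04 times the 7974 CPM of cluster 12, and at 7650 CPM in cluster 7. Cxcl16 was highest in the dendritic cell-like cluster, at 357 CPM (290 to 434), followed by cluster 6, led by interferon response genes, at 270 CPM (227 to 318).

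**Figure D2:**
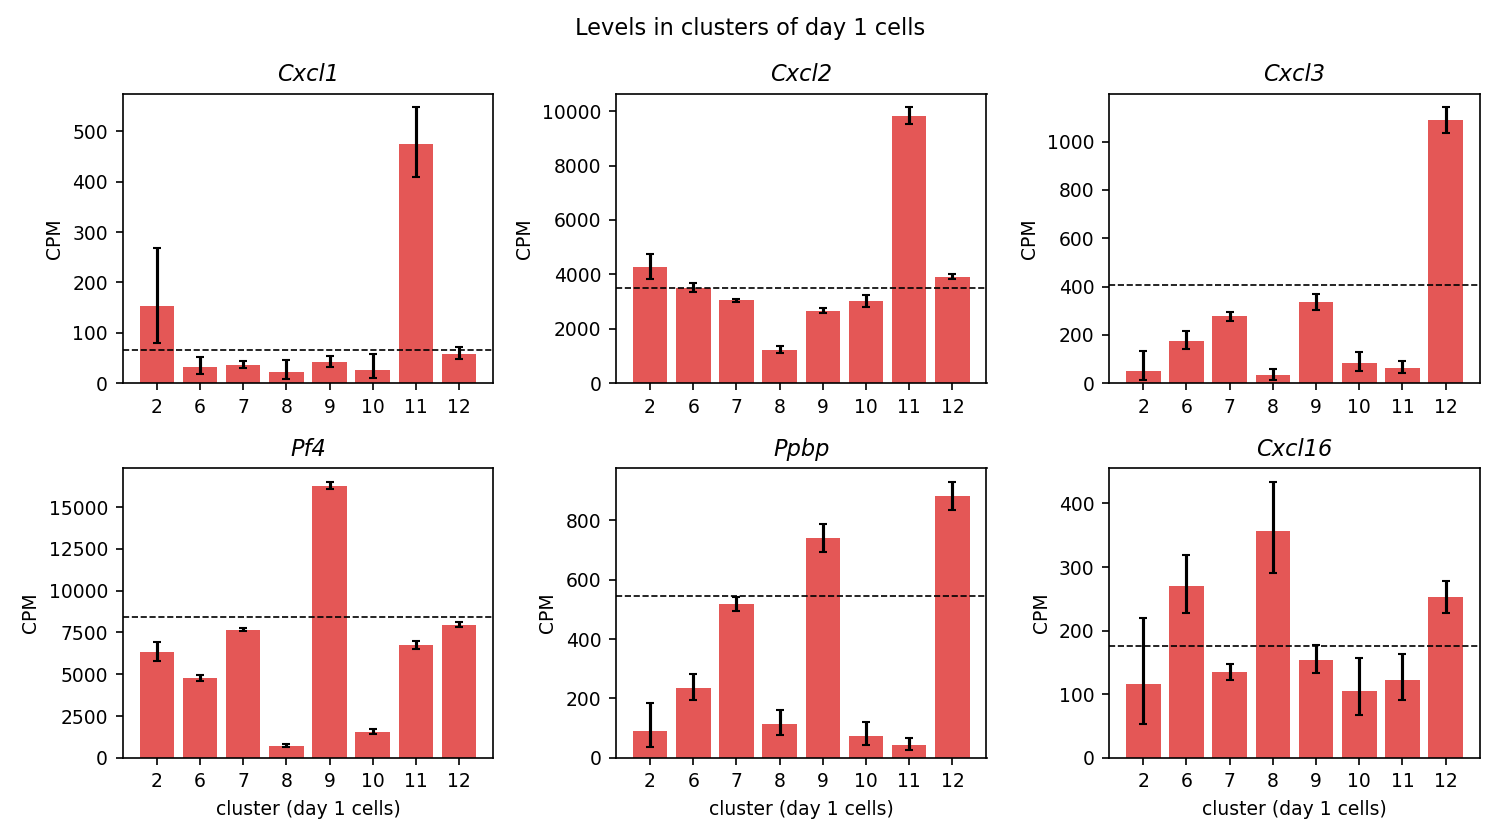
Bars give the CPM of each gene in the day 1 cells of each cluster with at least 30 such cells, from 0, with exact Poisson 95% intervals, and the dashed line is the level of the whole day 1 library. Cxcl1 and Cxcl2 are highest in cluster 11, Cxcl3 and Ppbp in cluster 12, Pf4 in cluster 9 and Cxcl16 in cluster 8.

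How sharply some of these peaks stand out followed the clustering. Under other clusterings, the ratio of the highest cluster to the library moved beyond its counting interval in 6 cases and stayed within it in 12. With a Leiden resolution of 0.5 the highest cluster for Cxcl3 was 1.25 times the library level rather than 2.67 times, and for Pf4 1.19 rather than 1.93 times. Cxcl16 went from 2.04 to 1.34 times. The Ppbp peak was slight in the main clustering, where cluster 12 was at 1.19 times the level of cluster 9 (1.10 to 1.30). Cxcl1 and Cxcl2, at 7.11 and 2.82 times, did not move beyond their counting intervals under the alternatives run.

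Dendritic cell-like cells, taken as the cells here most likely to lack Pf4 and Ppbp, served as a background. In the 66 of them at day 1, with a median of 4500.5 UMIs against 2519 in other cells, Pf4 was at 721 CPM or 8.27% of the level in other cells, Cxcl3 at 7.63%, Ppbp at 20.4%, Cxcl1 at 31.3% and Cxcl2 at 34.2%. After thinning, 50.8% of them had Pf4, 38.1% Cxcl2, 7.94% Cxcl3 and 4.76% Ppbp, against 84.4%, 70.5%, 19.0% and 15.6% of other cells. Before thinning, 89.4% of the dendritic cell-like cells and 93.5% of other cells had Pf4, so its unthinned share hardly separated the 2 groups. Ppbp levels at day 1 in clusters 2, 10 and 11 (89.8, 74.4 and 42.7 CPM) lay below the 114 CPM of the dendritic cell-like cells, so they are not read as expression above background. The intervals of cluster 2 (36.1 to 185 CPM) and of the dendritic cell-like cells (78.1 to 161 CPM) overlap, and the source of these UMIs was not tested. Cxcl16 went the other way, with 211% of the level in other cells. Uninjured nerve had 1 dendritic cell-like cell, so its low Ppbp level has no such background beside it.

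In uninjured nerve 682 of the 728 cells fell into clusters 1 and 4, and the genes divided between them. In cluster 4, led by Lilra5 and Hpgd, Cxcl2 was at 7589 CPM (7427 to 7753) against 1435 CPM (1324 to 1552) in the epineurial macrophage-like cluster 1, or 5.29-fold higher (4.88 to 5.75). Cxcl1 was 5.86-fold higher in cluster 4 (3.59 to 10.2) and Cxcl16 3.32-fold (2.15 to 5.37). Pf4 was the reverse, at 7245 CPM (6994 to 7503) in cluster 1 and 4353 CPM (4231 to 4478) in cluster 4, 1.66-fold higher in cluster 1 (1.59 to 1.74). Of the 33 Ppbp UMIs, 24 were in cluster 4 and 2 in cluster 1. The median UMIs per cell were 2237 and 2219, but 450 of 483 cluster 4 cells and 158 of 199 cluster 1 cells reached 1000 UMIs. Among those, thinned, Cxcl2 was found in 75.6% of cluster 4 and 41.1% of cluster 1 cells, and Pf4 in 87.3% and 99.4%.

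Cells of these 2 clusters were also present 5 days after crush, in small numbers. The 38 cluster 4 cells at day 5 had 7261 CPM of Cxcl2, 0.957 times the uninjured level of that cluster (0.875 to 1.04), and 4512 CPM of Pf4, 1.04 times (0.924 to 1.16). The 45 cluster 1 cells had 0.833 times the Cxcl2 level (0.654 to 1.05) and 1.05 times the Pf4 level (0.957 to 1.15). The lower levels of the whole day 5 library were found in its large clusters instead: Cxcl2 was at 1464, 1179 and 1993 CPM and Pf4 at 3453, 3509 and 971 CPM in clusters 2, 3 and 10, led by Olfml2b, by Ccl8 and Gdf15, and by class II genes such as H2-Ab1. Cxcl16 was at 304, 339 and 283 CPM in these 3 clusters and at 28.8 CPM (2 UMIs) in cluster 1. A cell can be placed in a cluster because it resembles it, so equal levels within a cluster are a description of the cells placed there.

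Clusters 2, 6 and 10 held at least 30 cells of both injured libraries. From day 1 to day 5, Pf4 was at 0.546 times its day 1 level in cluster 2 (0.497 to 0.601), 0.276 times in cluster 6 (0.235 to 0.323) and 0.619 times in cluster 10 (0.554 to 0.695), against 0.282 times in the whole libraries. Cxcl2 was at 0.344, 0.782 and 0.662 times in these clusters, against 0.501 times overall. Both genes were thus lower at day 5 in all 3 clusters, by amounts that differed between them. The dendritic cell-like cells, used above as a background, were also lower at day 5. They had 721 CPM of Pf4 at day 1 and 208 CPM at day 5, and 1220 and 609 CPM of Cxcl2. The day 5 values rest on 18 cells, fewer than the 30 asked of the clusters above. These cells had 15 UMIs of Pf4 (116 to 343 CPM) and 44 of Cxcl2 (443 to 818 CPM). Cluster 10 had 1567 and 971 CPM of Pf4. The part of the background in these cluster ratios was not tested. Cxcl3 had 4, 93 and 19 UMIs in them at day 1 and 0, 0 and 9 at day 5, which in cluster 10 is a ratio of 0.0480 (0.0191 to 0.111). Cxcl1 was at 0.260 times in cluster 2 (0.134 to 0.544), where day 1 had 12 UMIs of it, and its intervals in clusters 6 and 10 spanned 1. Cxcl16 was higher at day 5 in cluster 2 (2.63 times, 1.37 to 5.82) and cluster 10 (2.69 times, 1.79 to 4.23), and in cluster 6 its ratio was 0.991 (0.660 to 1.45).

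The genes were next followed within cells. In thinned cells, the number of cells with both genes of a pair was divided by the number expected if the genes were independent within the library, and again with independence within each cluster. At day 1, Cxcl3 and Ppbp occurred together in 103 cells against 71.5 expected, 1.44 times, and 1.31 times within clusters. A further 364 cells had Cxcl3 without Ppbp and 279 had Ppbp without Cxcl3, and these can include cells in which the other gene was missed. The shares of day 1 cells were higher at greater depth, with 11.8% for Cxcl3 and 10.9% for Ppbp at 500 UMIs. At 2000 UMIs, which fewer cells reached, they were 24.9% and 19.0%. Cxcl1 and Cxcl2 occurred together 1.41 times the expected number in uninjured nerve, 1.28 times at day 1 and 1.47 times at day 5 (1.32, 1.20 and 1.40 within clusters). The values within clusters rest on 46, 88 and 37 cells against 34.8, 73.4 and 26.4 expected. They are given without an interval, so no excess within clusters is read from them. Pf4 and Ppbp were together 1.13 times, and Ppbp was found in 17.4% of day 1 cells with Pf4 (15.8 to 19.0) and 4.88% of those without (3.005 to 7.43). Pf4 was in 2086 of the 2496 thinned day 1 cells, so that ratio could not go far above 1, and 362 of 382 cells with Ppbp had Pf4. The highest ratio possible is set by the commoner gene, so ratios are not ranked between pairs or libraries. Cxcl1 and Ppbp were together in 9 cells against 15.2 expected, 0.594 times, but 1.27 times when cells were thinned to 500 UMIs, so no direction is read from that pair.

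**Figure D3:**
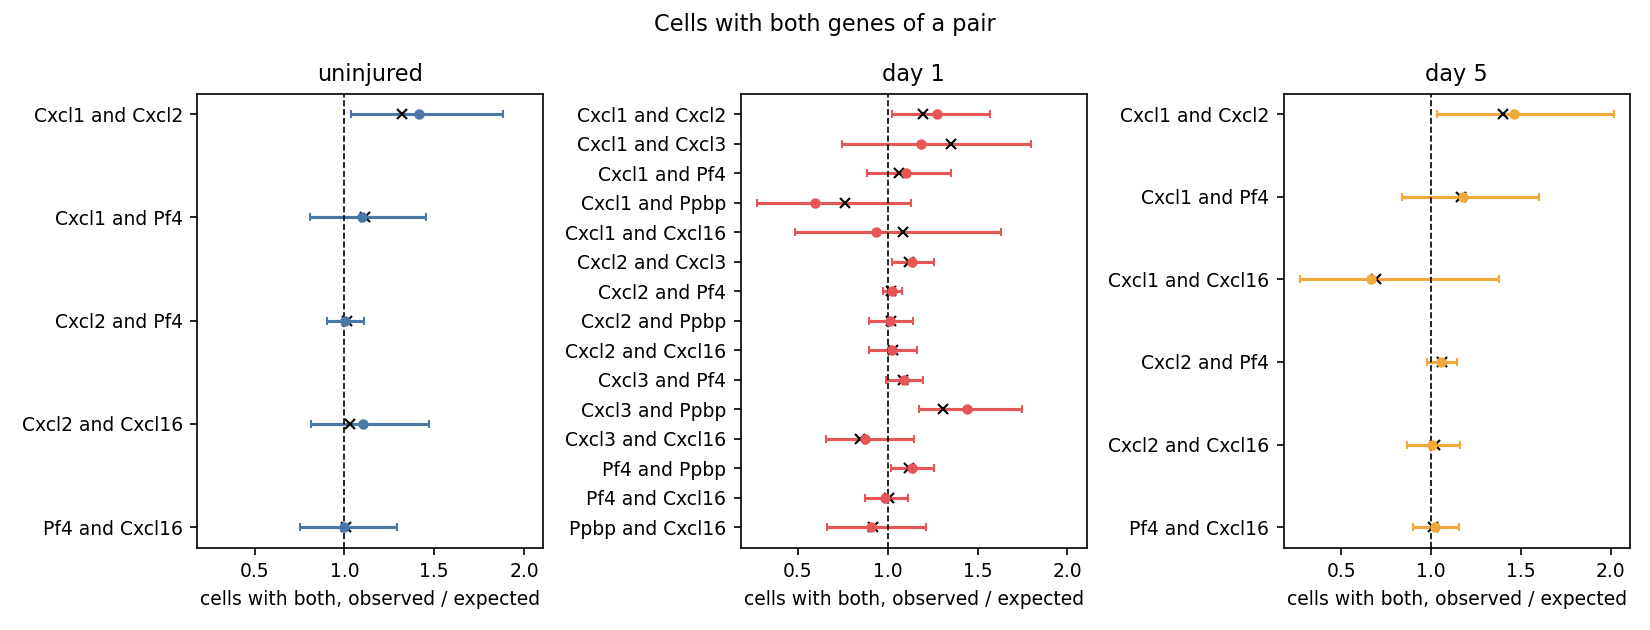
Points give, for pairs with at least 10 cells expected, the observed over the expected number of cells with both genes in cells thinned to 1000 UMIs, with Poisson 95% intervals of the observed count, and crosses give the same with independence within clusters. Cxcl1 with Cxcl2 lies right of 1 in all 3 libraries and Cxcl3 with Ppbp at 1.44 at day 1.

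The share of cells with Ppbp changed with the amount of Pf4 in the cell. Among day 1 cells thinned to 1000 UMIs, Ppbp was found in 4.88% of 410 cells with 0 Pf4 UMIs, 5.44% of 753 cells with 1 to 4, 13.6% of 748 cells with 5 to 14 and 37.4% of 585 cells with 15 or more (33.5 to 41.5). Cxcl3 went from 10.2% to 28.0% over the same groups, and Cxcl16 was at 13.9% and 12.6%. The cells richest in Pf4 were also the shallowest before thinning, with medians of 3398, 3187, 2761.5 and 2163 UMIs over the groups. By Cxcl2 content, Cxcl1 was found in 1.46%, 3.46%, 6.06% and 15.9% of day 1 cells, in 1.40%, 6.42%, 13.7% and 15.5% of uninjured cells, and in 1.56%, 3.05%, 6.47% and 16.7% of day 5 cells, the last from 4 of 24 cells.

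**Figure D4:**
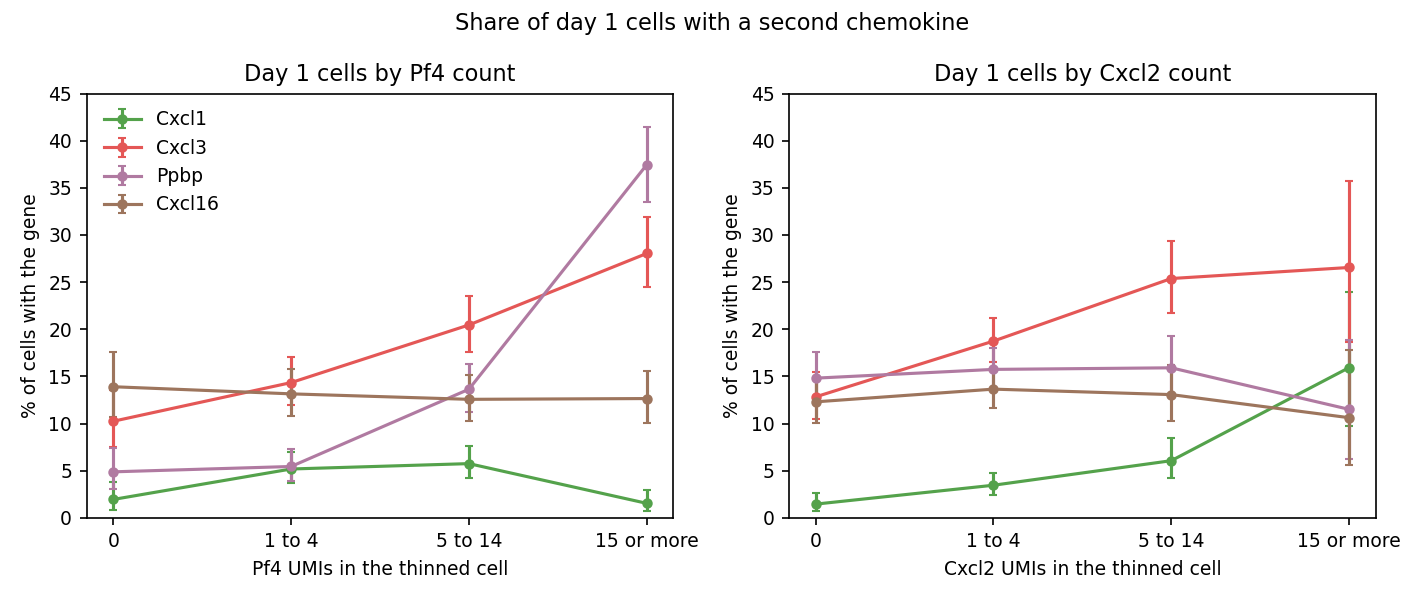
Each point is the percentage of day 1 cells with at least 1 UMI of the gene among cells grouped by their Pf4 UMIs (left) or Cxcl2 UMIs (right) after thinning to 1000 UMIs, with exact binomial 95% intervals. Ppbp reaches 37.4% in the cells with the most Pf4 and Cxcl1 15.9% in the cells with the most Cxcl2, while Cxcl16 stays between 10.6% and 13.9%.

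Genes most like each member were ranked by Pearson correlation across the cells of a library, on log2 of 1 plus UMIs per 10000. All values are weak to moderate, rest on cells that share a library and its depth, and are given as a description. Over 728 uninjured cells, Cxcl2 was most like Cd83 (r = 0.48), Ccl3 (0.46), Ccl2 (0.44), Nfkbia (0.44) and Cd14 (0.44), a set with chemokine genes and Nfkbia, the NF-kB inhibitor. At day 1 (2793 cells) its closest genes were Dusp1 (0.26), Fos (0.24), Klf6 (0.23), Nfkbia (0.22) and Zfp36 (0.22), and at day 5 (2059 cells) Nfkbia (0.38), Nfkbiz (0.31), Marcksl1 (0.26), Junb (0.26) and Ccl2 (0.25). Nfkbia was thus among the 5 in each library. For Cxcl1 the closest gene in uninjured nerve was Cxcl2 (0.23), and at day 1 Mgl2 (0.20), Nfkbia (0.19) and Egr1 (0.19) came before Cxcl2 (0.18).

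At day 1 the closest gene to Pf4 was Ppbp and the closest to Ppbp was Pf4 (r = 0.36), and Arg1, which encodes arginase 1, came next for both (0.31 and 0.22). Arg1 was also the gene most like Cxcl3 (0.27), followed by Spp1 (0.25), Lgals3 (0.24), Clec4d (0.23) and Ftl1 (0.22). In the other libraries Pf4 had other neighbours: C1qc (0.29), C1qa (0.28), Ltc4s (0.27), Ly6e (0.27) and Cd209g (0.26) in uninjured nerve, and Folr2 (0.30), Cbr2 (0.30), Ccl8 (0.30), Cd63 (0.29) and Ltc4s (0.29) at day 5. Cxcl16 had no gene above 0.18 in any library. With counts of thinned cells, 2 of the 5 genes nearest Pf4 in uninjured nerve and 3 of 5 at day 5 were shared with these, and 3 of 5 for Ppbp.

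Of the other CXC ligands, 8 of 9 listed were in the tables. Cxcl5, the neighbour of Ppbp on chromosome 5, had 0, 60 and 0 UMIs. Cxcl10, an interferon-induced ligand of Cxcr3, was at 61.0, 61.0 and 49.2 CPM. Cxcl12, the ligand of Cxcr4, was at 54.3, 4.77 and 2.17 CPM, and Cxcl14 at 9.06, 84.8 and 28.4 CPM. Cxcl13 had 16 UMIs at day 1 and 0 elsewhere, and Cxcl9 had 3, 0 and 22 UMIs.

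Transcripts of the receptors for these ligands were few in these cells. Cxcr2, the receptor for Cxcl1, Cxcl2, Cxcl3 and the Ppbp product, had 2, 7 and 8 UMIs, named although it missed the 10-UMI rule, and Cxcr1 and Cxcr6 had 0 in all libraries. Cxcr3 had 7, 4 and 40 UMIs and the scavenger receptor Ackr3 0, 59 and 1. Cxcr4 was the one receptor that reached 10 CPM, at 14.5, 139 and 142 CPM, 9.62-fold higher at day 1 (6.43 to 15.1) and 9.81-fold higher at day 5 (6.54 to 15.4) than in uninjured nerve.

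Of 25 genes of NF-kB signalling and its targets, 23 were compared at day 1 against uninjured nerve, 7 were at least 2-fold lower (14.8% of all genes) and 5 higher (16.4% of all genes), and the median log2 ratio was -0.58 against 0.11 over all 7036 genes. Nfkbiz went from 543 to 84.0 CPM (log2 ratio -2.69), Nfkbid from 264 to 41.2 CPM (-2.68), and Ccl3, a CC chemokine, from 2075 to 544 CPM (-1.93). Cxcl1 and Cxcl2 went in the same direction, Cxcl2 short of a call. Cxcl3, whose window also held GGGAATTTCC, went the other way, from 0.604 to 407 CPM. Icam1 went from 120 to 32.3 CPM (-1.90). The 5 that were higher, named after their values were seen, were Tnfaip2, Ptgs2, Sod2, Nfkbie and Il1b, which went from 397 to 1166 CPM. At day 5 against uninjured nerve 7 of 23 were lower (11.1% of all genes) and 5 higher (9.85%, median -0.31 against 0.01 over all genes), and from day 1 to day 5 Nfkbiz was higher and Sod2 lower (4.91% and 5.48% of all genes).

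Cxcl1, Cxcl2 and Cxcl3 transcripts carry AU-rich elements, which target them for rapid decay. Of 7 genes for regulators of this decay, 4 were lower (14.8% of all genes) and 1 higher (16.4%) at day 1 than in uninjured nerve (median -1.21), with Zfp36, which encodes tristetraprolin, going from 1687 to 471 CPM (-1.84), Zfp36l2 from 276 to 83.3 CPM (-1.73) and Zfp36l1 from 298 to 94.6 CPM (-1.66). Elavl1, which encodes the stabilizing protein HuR, was at 64.0 and 70.5 CPM. The fourth lower gene was Zc3h12a and the higher one Khsrp, both named after their values were seen. At day 5, 3 of 6 were lower (11.1% of all genes) and 0 higher (9.85%) than in uninjured nerve (median -0.85), and 0 of 7 differed 2-fold from day 1.

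The proteoglycan genes that bind or store CXC chemokines had 5 of 6 higher at day 1 than in uninjured nerve (16.4% of all genes) and 0 lower (14.8%, median 1.94). Srgn, the granule proteoglycan that holds Pf4 in platelets, was at 564, 1942 and 905 CPM in the 3 libraries, Cd44 at 52.5, 225 and 109 CPM, and Sdc3 at 44.1, 116 and 143 CPM. Vcan, also one of the monocyte markers that summed to 270 CPM in uninjured nerve and 2664 CPM at day 1, had 0 UMIs and 511 UMIs there, and Sdc1, named after its values were seen, 0.604 and 30.01 CPM. From day 1 to day 5, 4 of 6 were lower (5.48% of all genes) and 0 higher (4.91%), with a median of -1.07 against -0.11 over all genes. Of the 3 genes for shedding of Cxcl16, Rhbdf2, likewise named after its values were seen, was higher at day 1 (3.47-fold) and at day 5 (2.23-fold), and Adam10 and Adam17 were 1.74-fold to 1.85-fold higher at both times, short of a call. The lists hold genes chosen for these pathways, and no test compared them with other genes.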

How the data were processed

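The deposited tables hold raw UMI counts per gene and cell barcode, with no normalization by the authors. Per the submitters' processing notes, Cell Ranger 2.0.2 and the mm10 build were used. The labels do not say how free RNA and doublets were handled, and a pooled table of the libraries was not used. Barcodes with at least 200 genes and at most 10% mitochondrial UMIs were kept, which removed 3, 3 and 0. No doublet caller was run. UMIs were summed per library (1656510, 7963091 and 5524496 UMIs) and scaled to CPM. CPM have exact Poisson intervals, ratios exact conditional binomial intervals and shares Clopper-Pearson intervals, all at 95%, covering counting error only. A count of 0 was set to 3 UMIs per library (1.81, 0.377 and 0.543 CPM) in log2 ratios. With 1 library per time point no test was made. Cells were thinned to 1000 UMIs with a fixed seed. Clusters came from scanpy 1.11.5 (2000 variable genes, 30 principal components, 15 neighbours, Leiden resolution 1). A cluster took a marker class's name from at least 3 markers 2-fold above the other clusters, 2 of them among its 10 leading genes; the endoneurial class gave no name, as its markers came partly from these data. The fold counts were checked on simulated data that held counting error only. Variation between libraries of 1 time point was not simulated, so the check does not cover it.

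The members, gene lists and markers were chosen with earlier results of these data known. Named genes were the members, CXC ligands and receptors with at least 10 UMIs in any library, up to 4 genes of each other list with at least 50 CPM in either library and the largest log2 ratio, and the 5 genes most correlated with a member found in at least 5% of cells, leaving out ribosomal, mitochondrial and predicted genes. Alternatives varied the scaling, cell filter, thinning, fold, CPM minimum and clustering. Sequences came from RefSeq (GRCm38.p6), with 5 of the 6 genes matched and Cxcl16 not matched.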

Additional observations from a re-analysis of the deposited data

How the results depend on the processing

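Of 162 log2 ratios recomputed under other settings, 161 kept their direction. The other was Cxcl3 at day 5 against uninjured nerve, which rests on 21 and 1 UMIs. Without the 10 highest cells of each library its levels, 0.365 and 0 CPM, both lay under 3 UMIs, so no direction is read from them. Of 108 ratios whose reported value was at least 2-fold, 103 stayed so. The others were that Cxcl3 value, also 0.86 without the deepest 5% of cells, Cxcl1 at day 1 (-0.86 without its 10 highest cells) and Pf4 at day 5 (-0.85 and -0.86). The number of genes lower at day 1 than in uninjured nerve was 0 rather than 1 without those 10 cells and at 4-fold. At 4-fold the number higher at day 5 was 0 rather than 1, and the number lower at day 5 was 2 rather than 4. The number lower from day 1 to day 5 was 4 rather than 3 under 5 settings, as Cxcl2 lay at the limit. Leaving out the 10 highest cells and leaving out the 2 clusters of shallow cells were settings chosen after seeing the data. Scaling by the median of ratios moved log2 ratios by -0.04, 0.03 and 0.07. Of the shares of cells with a UMI under thinning or a minimum of 2 UMIs, 57 lay outside the counting interval of the unthinned share and 15 within it. Depth limits Cxcl3 and Ppbp outside day 1, where 3 UMIs are 1.81 CPM in uninjured nerve and 0.543 CPM at day 5. No paired analysis was possible because each time point is 1 library.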

Other observations

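In thinned cells, 5 of the 6 genes were found together in 1 uninjured cell, 13 day 1 cells and 0 day 5 cells, and all 6 in 0 cells of any library. None of the 6 was found in 3.45% of uninjured cells, 5.05% of day 1 cells and 15.1% of day 5 cells. Of the 10 day 1 cells with the most Ppbp UMIs, 6 were in the monocyte-like cluster 7, and of the 10 with the most Cxcl3 UMIs, 8 were in cluster 12. This ranking does not allow for depth. Cluster 7 held 890 day 1 cells and its cells were deep, with a median of 3838.5 UMIs. By CPM, Ppbp was lower in cluster 7 (519) than in clusters 12 (881) and 9 (739). Schwann cell markers summed to 315 CPM in uninjured nerve, 56.1 CPM at day 1 and 62.6 CPM at day 5, and their part in the chemokine levels was not tested.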
